A study of Homo sapiens with 6 samples.

Results

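The tripartite motif (TRIM) genes encode a family of ubiquitin ligases and related proteins, and 42 of the 14168 genes listed for HaCaT keratinocytes belonged to it. Members were taken by name, as TRIM followed by a number and at most a letter A to C, and all 42 reached 0.5 CPM (the reads of a gene scaled to the library's total) in all 6 libraries, so none entered through the group where it was high. The libraries came from HaCaT, an established line of immortalised human keratinocytes, treated with a control siRNA (siControl, n = 3) or with an siRNA against Agrin (siAgrin, n = 3). Every group thus shares the cell line and the transfection, and the groups differ in the siRNA. Neither the Agrin siRNA used for sequencing nor the harvest time of these cells is given in the sources used here. The study asked which genes act downstream of Agrin, a heparan sulfate proteoglycan of the extracellular matrix, in keratinocytes grown on stiff plastic.

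A TRIM protein carries, from its amino terminus, a RING finger that recruits a ubiquitin-loaded E2 enzyme, a zinc-binding B-box or a pair of them, and a coiled coil through which the proteins pair. The carboxy-terminal part differs between members and picks the substrate, and it divides the family into structural classes. Many members, mostly those ending in a PRY-SPRY domain, act in innate defence, where several restrict viruses or tune the signalling of the RNA and DNA sensors, and some of these are themselves induced by interferon. Others repress chromatin, bind microtubules or, in keratinocytes, associate with the keratin network.

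AGRN, the gene targeted, separated the groups, with siAgrin libraries at a mean of 48.8% of the control level (401 ± 12.3 against 821 ± 20.9 CPM, SD, n = 3). The two-sided exact permutation p was 0.1, and no smaller value is possible with 3 libraries a group. Libraries held 40958553 to 43312708 reads in the listed genes, and the least covered TRIM gene had at least 84 reads in every library. Counting error weighs more on such scarce members than on the abundant ones. The keratinocyte markers KRT5, KRT14 and TP63 were high in each library, at 4249 to 5099 CPM for KRT5. Of the 8 keratinocyte markers tested, KRT14 and ITGA6 rose by the test given below, at log2 fold changes of 0.60 and 0.54. The other 6 did not pass, with negative values for ITGB4 and LAMB3. Of the markers of other cell types, 7 of 7 fibroblast genes were listed, and their summed level was 12.2 to 19.6 CPM in siControl and 9.47 to 46.7 CPM in siAgrin libraries, with siAgrin 2 the highest. Their part in the results below was not tested. The endothelial gene CDH5 fell from 23.6 to 1.77 CPM, while the endothelial receptor gene TEK was at most 0.0437 CPM in any library. Among leukocyte markers CD14 was at most 0.301 CPM, and CD68, which epithelial cells also express, ranged from 24.8 to 46.3 CPM. PMEL and MITF, the melanocyte markers listed, together held 7.23 to 7.99 CPM.

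Letters that match the core of the interferon-stimulated response element, GAAA, any pair of bases and GAAA again on either strand, were present near the start of 9 of the 31 members with a promoter sequence in RefSeq. These windows run from 250 bases before to 50 bases after a start. The same letters are in the windows of 3.94% of the tested genes with such a sequence and in 3.57% of all RefSeq windows. The 9 stretches of 30 bases are shown because they hold the letters that some of the fallen members share, with the matching letters in capitals and each read 5′ to 3′ on the strand of the gene (RefSeq, GRCh38.p14). TTTC on both sides of a pair of bases is the same core on the opposite strand. A match describes the letters and is not a site.
TRIM14, minus strand, chr9:98119229-98119258: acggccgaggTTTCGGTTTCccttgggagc
TRIM26, minus strand, chr6:30213578-30213607: cgcctgaTTTCAGTTTCCATTTCgctgccc
TRIM44, plus strand, chr11:35662730-35662759: tcctgacgggGAAAGGGAAAgtggaaccgg
TRIM16, minus strand, chr17:15683012-15683041: acagaggtaaGAAATAGAAAtaaagggtcc
TRIM5, minus strand, chr11:5685082-5685111: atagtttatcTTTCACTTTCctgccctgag
TRIM21, minus strand, chr11:4393663-4393692: ctgagcgGAAACTGAAAGTGAAAtagggag
TRIM34, plus strand, chr11:5624901-5624930: gccccaaaaaTTTCACTTTCatttctcagg
TRIM69, plus strand, chr15:44736456-44736485: ctaatgagggTTTCTCTTTCtcttaagcaa
TRIM2, plus strand, chr4:153151936-153151965: aataaatagaGAAAAGGAAAtaagccgaag
TRIM14, TRIM26 and TRIM44 are genes that fell on Agrin knockdown and TRIM16 is a gene that rose, while the other 5 did not pass the test. In TRIM26 and TRIM21 a pair of overlapping matches shares letters. The core thus stood in the windows of 3 of the 6 fallen members with a sequence, 1 of the 3 that rose and 5 of the 22 that did not pass. TRIM11, TRIM13, TRIM22, TRIM24, TRIM27, TRIM28, TRIM29, TRIM35, TRIM4, TRIM45 and TRIM8 had no entry. Of the other cores, searched on both strands, TTCNNNGAA, bound by STAT factors, was in 16.1% of the matched members against 8.46% of tested genes, TGANTCA, bound by AP-1, in 12.9% against 7.03%, and GGAATG, bound by TEAD factors, in 19.4% against 15.1%. These shares stand for 5, 4 and 6 of the 31 matched members, and a gene can have more than 1 window. By window the 3 cores were in 7, 4 and 8 of the members' 48 windows. Of all RefSeq windows 7.66%, 7.71% and 14.0% held them.

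On Agrin knockdown 7 of the 42 TRIM genes fell and 3 rose, and a single member, TRIM31, changed more than 2-fold. TRIM31, TRIM14, TRIM44, TRIM56, TRIM26, TRIM38 and TRIM8 were the genes that fell, and TRIM36, TRIM37 and TRIM16 those that rose. Rise and fall here stand for an adjusted p below 0.01 in limma, fitted to log2(CPM + 0.5) over all 13050 tested genes, and fold changes compare siAgrin with siControl on that scale. By this rule 9.14% of all tested genes rose and 9.07% fell, against 7.14% and 16.7% of the TRIM genes, and 18.2% of all genes passed in either direction against 23.8% of the members. More than 2-fold changes made up 1.55% of all tested genes. The median log2 fold change of the members was -0.09, that of all tested genes was -0.0019, and 29 members had a negative and 13 a positive value. Over all 13050 tested genes 6573 values were negative and 6477 positive. In 20 members each siAgrin library was below every siControl library and in 6 it was above, while 16 overlapped. Over all tested genes the groups lay apart in this way for 24.9% downward and 25% upward. In bulk RNA fewer cells of a type and less RNA per cell cannot be told apart, and since nothing in the labels says that replicates came from separate cultures, p-values measure the spread between these libraries, which may be technical.

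**Figure D1:**
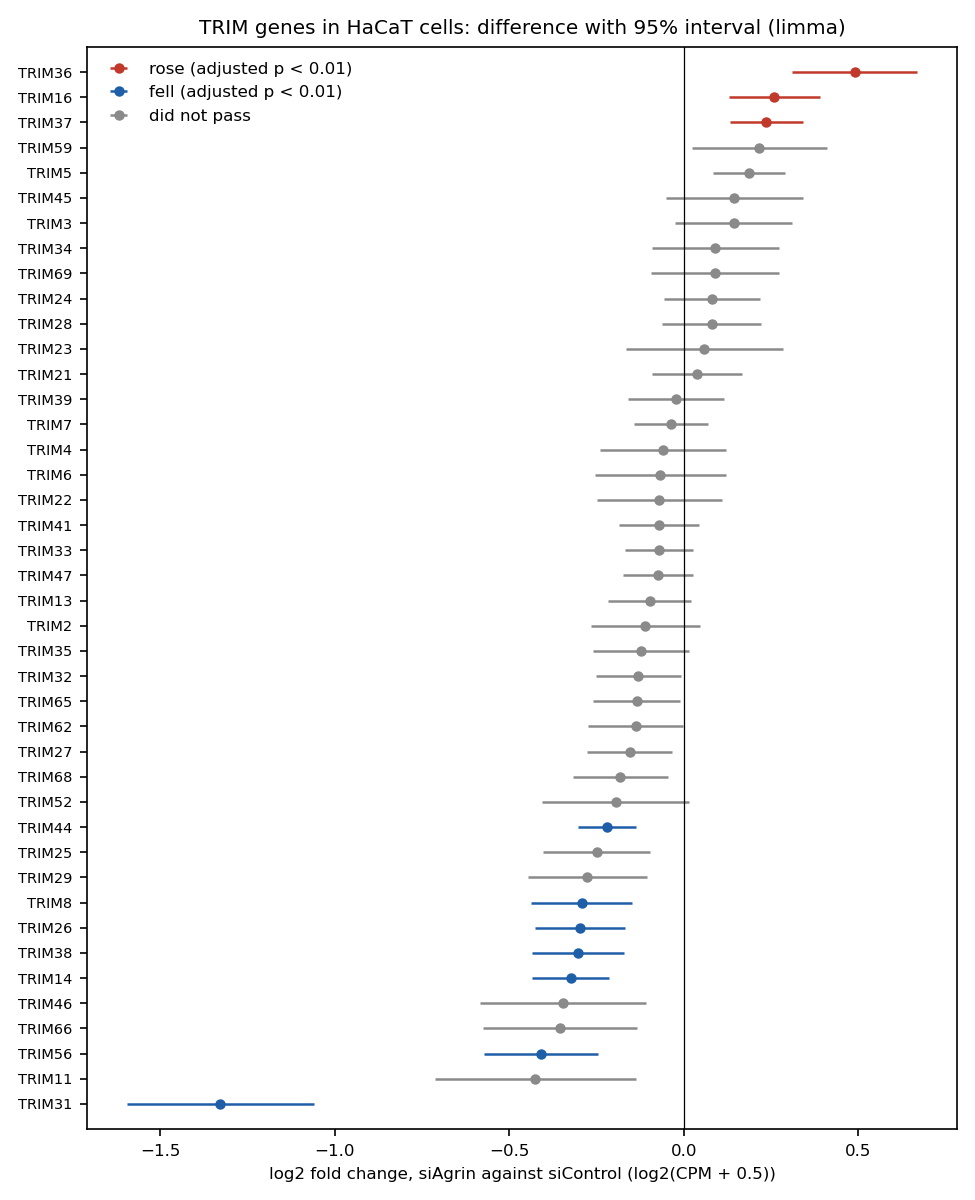
Log2 fold change of each of the 42 TRIM genes in siAgrin against siControl libraries (x axis, on log2(CPM + 0.5)), with points for the estimate bars for limma's 95% interval, blue for genes that fell, red for genes that rose and grey for the rest. TRIM31 lies alone at -1.33, and the other 41 genes lie between -0.43 and 0.49.

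Summed over the 42 members, TRIM transcripts held 2340, 2423 and 2426 CPM in siControl 1 to 3, against 2149, 2227 and 2154 CPM in siAgrin 1 to 3, the order used for all values below. All siAgrin sums were below all siControl sums. TRIM29 alone made up 399 to 541 CPM of each sum. Without it the sums were 1851 to 1885 CPM in siControl and 1732 to 1751 CPM in siAgrin libraries, again with no overlap. Within the siAgrin group, siAgrin 3 held the middle value for 23 of the 42 members (54.8%, and 62.4% of all tested genes).

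TRIM31 showed the largest difference of the family. It encodes a RING ligase of epithelia that ubiquitinates the mitochondrial adaptor MAVS and marks the inflammasome protein NLRP3 for degradation. It lies on chromosome 6 of GRCh38 from 30102897 to 30113090, on the minus strand in the extended major histocompatibility region. The siControl libraries 1 to 3 measured 29.9, 29.3 and 28.2 CPM, and siAgrin 1 to 3 measured 13.5, 11.5 and 9.31 CPM. The siAgrin values were all less than the lowest siControl value. The means were 29.1 ± 0.851 and 11.4 ± 2.08 CPM (SD, n = 3), or 39.2% of control, a log2 fold change of -1.33 (SE 0.12, limma adjusted p = 0.00028). TRIM31 was the only member to pass in each of the 18 other settings and subsets tried, with log2 fold changes from -1.45 to -1.20. Of the 13 tested genes within 250 kb of it, TRIM26 fell and none rose.

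**Figure D2:**
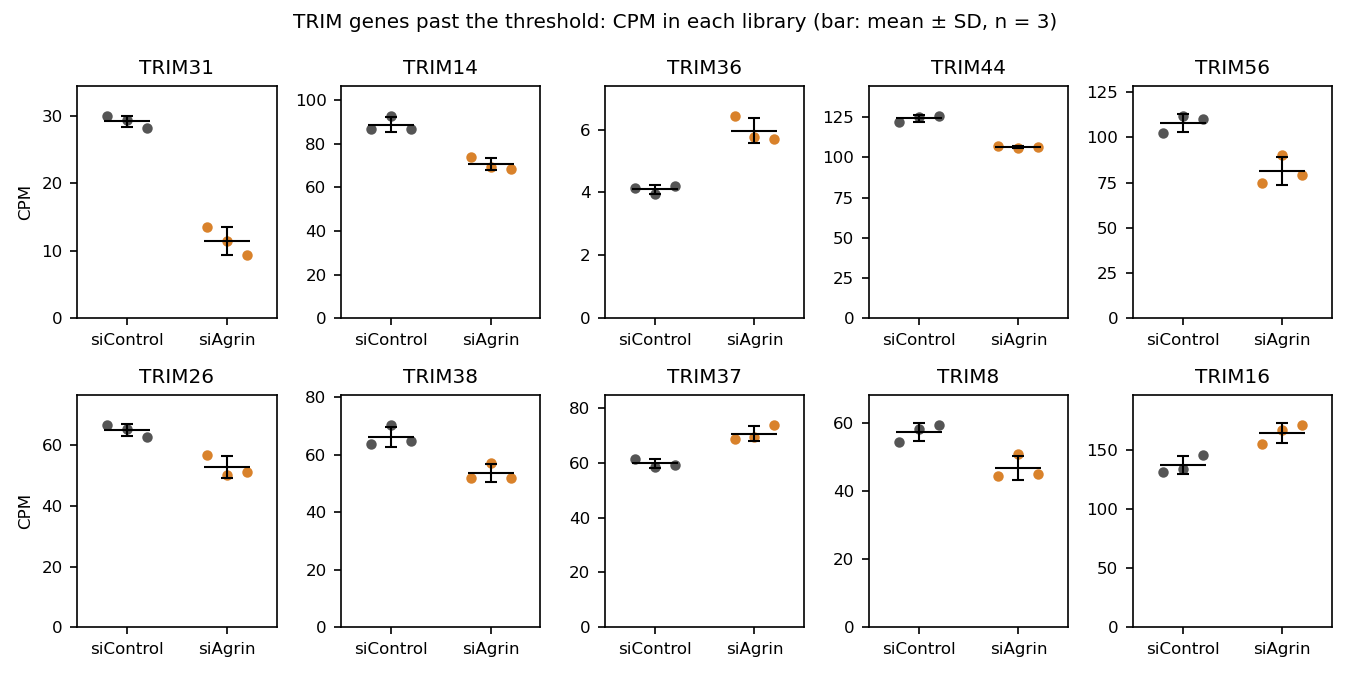
CPM of the 10 TRIM genes past the threshold in each of the 3 siControl (grey) and 3 siAgrin (orange) libraries, with bars for the mean ± SD and the y axis of each panel starting at 0. In every panel the groups do not overlap, and TRIM31 shows the widest gap relative to the control mean, from 29.1 to 11.4 CPM.

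TRIM31 belongs to the class with no named carboxy-terminal domain, and the other members of it that were measured were also lower in siAgrin libraries. In this class of 4 tested genes 3 fell and none rose, against 9.07% and 9.14% of all tested genes. TRIM56, an antiviral ligase of the DNA-sensing adaptor STING, went from 102, 112 and 110.2 CPM to 75.1, 90.2 and 79.0 CPM. Its siAgrin libraries spread more widely than those of TRIM31 relative to the difference, yet stayed below all controls (log2 fold change -0.41, SE 0.071, limma adjusted p = 0.0040). TRIM8, a ligase that acts on the kinase TAK1 in tumour necrosis factor and interleukin 1 signalling, measured 54.3, 58.2 and 59.2 CPM in siControl and 44.4, 50.8 and 44.9 CPM in siAgrin libraries. The groups did not overlap, and the fall was close to the threshold (log2 fold change -0.29, SE 0.063, limma adjusted p = 0.0096). TRIM8 did not pass in edgeR or without the filter on low values, with adjusted p-values up to 0.052 when a library was left out. TRIM52, the last member of this class, had 7.39, 6.32 and 5.97 CPM against 5.82, 5.37 and 5.75 CPM, and did not pass (limma adjusted p = 0.13). A long noncoding RNA on the opposite strand shares 27.6% of the exonic bases of TRIM52, and TRIM8-DT shares 19.3% of those of TRIM8. The paper names a stranded library kit, but the strand setting of the counting is not given in the sources used here. Reads of these partners may therefore not be separable.

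Of the 4 members placed in the class without a RING finger, 3 passed the test, TRIM14 and TRIM44 lower and TRIM16 higher. Members of the other classes, such as TRIM66, were not checked for a RING, so this list may not be complete. Over all tested genes 18.2% passed. Per kb of exon (union of GENCODE exons), TRIM29 led all 42 members at 52.1 CPM per kb in siControl libraries, TRIM16 was the third at 24.3 and TRIM14 the fourth at 16.2. TRIM14, an adaptor at mitochondria that joins MAVS signalling, measured 86.6, 92.6 and 86.6 CPM in siControl and 73.9, 69.5 and 68.5 CPM in siAgrin libraries. All siAgrin values lay below the controls (log2 fold change -0.32, SE 0.048, limma adjusted p = 0.0020). TRIM44, which carries a zinc finger of ubiquitin proteases in place of the RING, had the smallest standard error of the family, at 122, 125 and 126 CPM against 107, 106 and 107 CPM. Its fall was small and the groups were well apart (log2 fold change -0.22, SE 0.036, limma adjusted p = 0.0031).

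TRIM16, which promotes keratinocyte differentiation and takes part in the clearance of damaged lysosomes, rose from 131, 134 and 146 CPM to 155, 167 and 171 CPM. The highest control and the lowest siAgrin library were close (log2 fold change 0.26, SE 0.056, limma adjusted p = 0.0098). The call passed in 6 of the 18 other settings and in neither edgeR nor the fit without filter. TRIM16L, a near-identical copy of part of TRIM16 outside the naming rule, rose further, from 62.2, 60.2 and 68.6 CPM to 105.8, 102.9 and 113 CPM (log2 fold change 0.75, limma adjusted p = 0.00023). The paper does not give how reads that match both copies were counted, so both values are uncertain. An unlisted protein-coding gene on the same strand also shares 23.5% of the exonic bases of TRIM16. TRIM29, a keratinocyte protein that shapes the distribution of keratin filaments, was the most abundant member. It measured 489, 538 and 541 CPM in siControl and 399, 475 and 422 CPM in siAgrin libraries. The groups did not overlap and the difference did not pass (log2 fold change -0.28, 95% interval -0.45 to -0.11, limma adjusted p = 0.022).

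**Figure D3:**
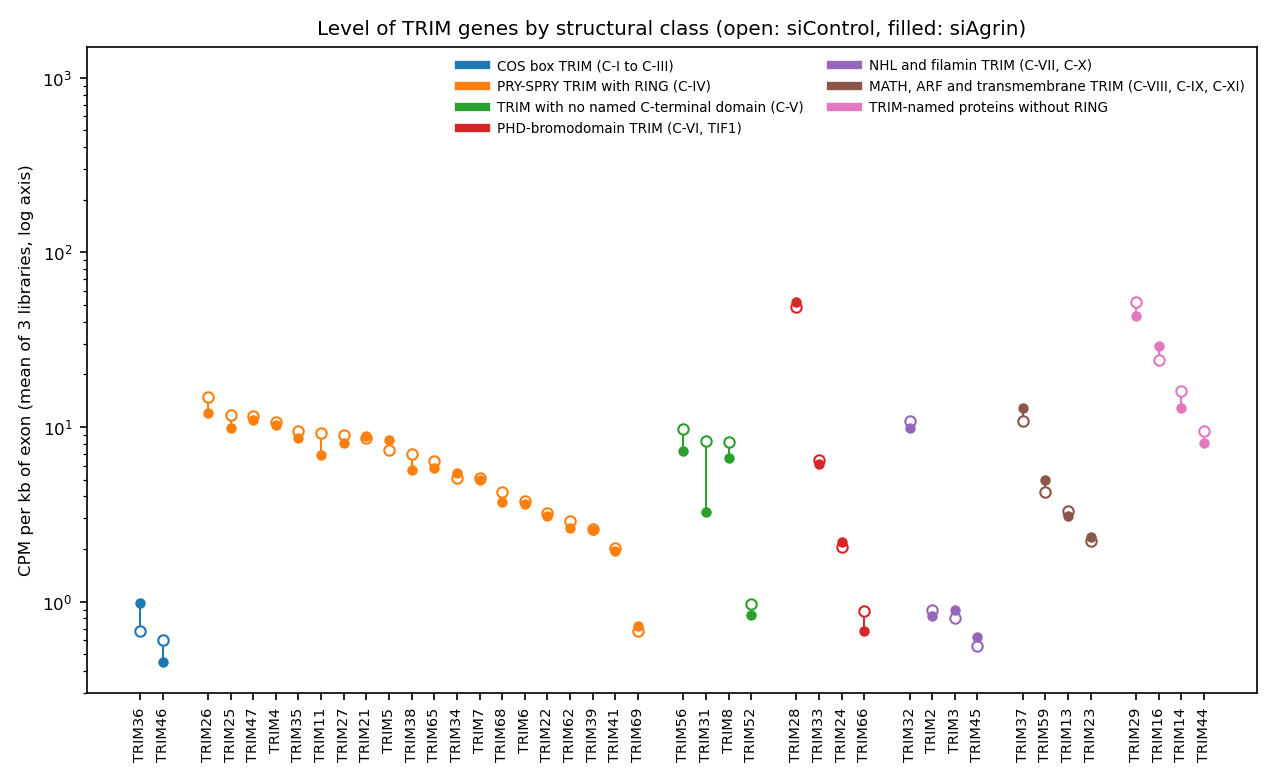
Mean level of the 42 TRIM genes in CPM per kb of exon on a log axis, grouped by structural class, with open circles for siControl and filled circles for siAgrin (n = 3 libraries each). TRIM29 at 52.1 and TRIM28 at 49.0 CPM per kb stand highest in siControl, and TRIM45 at 0.554 is lowest.

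Of the 20 tested genes with a RING and a PRY-SPRY domain, the largest class, 2 fell and none rose. These shares were 10% and 0%, against 9.07% and 9.14% of all tested genes. TRIM26, a ligase of innate signalling, measured 66.5, 65.4 and 62.6 CPM in siControl and 56.8, 50.2 and 51.3 CPM in siAgrin libraries. TRIM38, which acts on TAB2 and TAB3, measured 63.6, 70.2 and 64.9 CPM and then 51.8, 57.0 and 51.8 CPM. Both kept their siAgrin libraries below all controls, by nearly the same amount. The log2 fold change of TRIM26 was -0.30 (SE 0.056, limma adjusted p = 0.0056) and that of TRIM38 was -0.30 (SE 0.057, limma adjusted p = 0.0057). Of the 18 that did not pass, TRIM25, which ubiquitinates the RNA sensor RIG-I, was the most abundant. It went from 151, 147 and 141 CPM to 136, 115 and 118 CPM (log2 fold change -0.25, limma adjusted p = 0.022). Its groups did not overlap. TRIM11, a ligase with a role in protein quality control, had the most negative log2 fold change of the uncalled members at -0.43, with a 95% interval of -0.71 to -0.14. It measured 70.7, 80.7 and 84.4 CPM in siControl and 48.7, 70.1 and 57.8 CPM in siAgrin libraries, and the gap between siAgrin 2 and siControl 1 was narrow. TRIM27 had 72.0 and 64.7 CPM on average (limma adjusted p = 0.052). In this class 9 members lay lower in each siAgrin library and 1, TRIM5, lay higher, while 10 overlapped. Over all tested genes 24.9% lay lower and 25% higher in this way.

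TRIM5, TRIM6, TRIM22 and TRIM34 are neighbours on the short arm of chromosome 11, and none of the 4 passed. TRIM5, which restricts retroviruses by binding their capsid, came closest, with 39.2, 40.2 and 39.5 CPM in siControl and 43.5, 46.8 and 45.3 CPM in siAgrin libraries. All siAgrin values were above the controls (log2 fold change 0.19, 95% interval 0.08 to 0.29, limma adjusted p = 0.014). TRIM22, another antiviral member, and TRIM34, a capsid-binding relative of TRIM5, overlapped between groups, at log2 fold changes of -0.07 and 0.09. TRIM6 had -0.07, and its sign turned when a library was left out. TRIM6 and TRIM34 share exons with the read-through gene TRIM6-TRIM34, which was listed apart at 19.6 and 20.1 CPM on average. The paper does not give how reads of shared exons were counted, so the same reads may enter more than 1 of the 3 genes. In TRIM34 the shared part is 83.6% of the exonic bases. On chromosome 6 TRIM31, TRIM26 and TRIM38 fell, while TRIM27 and TRIM39 did not pass, and all 5 had negative values. Of all 13050 tested genes 9.07% fell and 6573 had negative values. TRIM39 shares 29.5% of its exonic bases with the read-through gene TRIM39-RPP21, which had 19.7 and 20.1 CPM.

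Of 10 TRIM-named ligases and adaptors listed as induced by interferon 4 fell and none rose (40% and 0%). Over all tested genes 9.07% fell and 9.14% rose. TRIM14, TRIM26, TRIM38 and TRIM56 were those that fell, and TRIM5, TRIM21, TRIM22, TRIM25, TRIM34 and TRIM69 did not pass. The 10 had a median log2 fold change of -0.16. TRIM21, the cytosolic antibody receptor, had 16.7 ± 0.373 and 17.2 ± 0.733 CPM (SD, n = 3), and a 95% interval of the log2 fold change from -0.09 to 0.17. TRIM69 had 6.27 and 6.70 CPM. Summed over the 10 genes, the siControl libraries held 581 to 607 CPM and the siAgrin libraries 492 to 510.0 CPM. Other interferon-stimulated genes went both ways. Of 25 tested, 7 rose and 5 fell (28% and 20%). Their sum overlapped between groups, at 2501 to 2616 CPM in siControl and 2467 to 2665 CPM in siAgrin libraries. IFI27 and IFI6 had log2 fold changes of 2.36 and 1.94, and SAMD9L and SAMD9 of -0.85 and -0.81. The response element core was in 6 of the 9 interferon-inducible TRIM genes with a promoter sequence, including 2 of the 4 that fell, as shown above for TRIM14 and TRIM26.

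**Figure D4:**
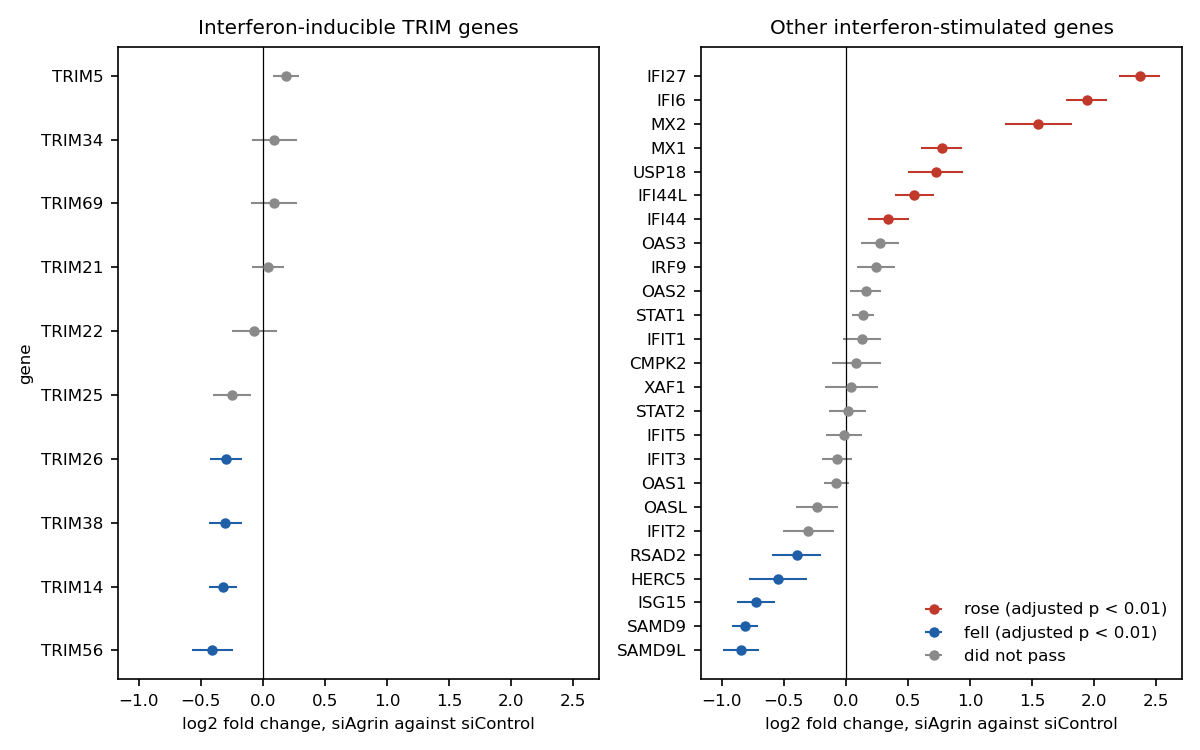
Log2 fold change in siAgrin against siControl libraries, with limma's 95% interval, of 10 interferon-inducible TRIM genes (left) and 25 other interferon-stimulated genes (right) on the same x axis. The TRIM genes lie between -0.41 and 0.19, and the other genes between -0.85 and 2.36.

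Of the microtubule-binding members with a COS box, TRIM36 rose and TRIM46 did not pass. TRIM36, a ligase best known from testis and embryo, was scarce, at 4.14, 3.94 and 4.21 CPM in siControl and 6.42, 5.76 and 5.71 CPM in siAgrin libraries. Each siAgrin library exceeded the controls, and the mean reached 145% of control (log2 fold change 0.49, SE 0.078, limma adjusted p = 0.0028). TRIM46, which organises microtubules at the start of axons, had 2.66, 2.53 and 3.03 CPM against 2.13, 2.20 and 1.82 CPM, lower in each siAgrin library (log2 fold change -0.35, limma adjusted p = 0.033). Both lay among the lowest of the family per length, at 0.676 and 0.605 CPM per kb in siControl libraries. TRIM37, with a MATH domain, is a regulator of centrosomes whose loss causes mulibrey nanism. It rose from 61.5, 58.3 and 59.3 CPM to 68.4, 69.4 and 73.6 CPM. The groups were apart (log2 fold change 0.24, SE 0.045, limma adjusted p = 0.0059). TRIM59 and TRIM13, which are anchored in membranes, and TRIM23, which carries an ARF domain, did not pass, at log2 fold changes of 0.22, -0.10 and 0.06. SMC4 on the opposite strand shares 19.9% of the exonic bases of TRIM59, and the value of TRIM23 turned negative when a library was left out.

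None of the 4 chromatin regulators with a PHD finger and a bromodomain passed. TRIM28, the corepressor that zinc finger proteins of the KRAB class bring to DNA, was second in the family per length at 49.0 CPM per kb. It measured 212, 208 and 213 CPM in siControl and 245, 208 and 218 CPM in siAgrin libraries. The groups overlapped, and siAgrin 1 lay above the other 5 (log2 fold change 0.08, 95% interval -0.06 to 0.22). TRIM33, a ligase for SMAD4, had 62.2 ± 1.31 and 59.2 ± 1.78 CPM (SD, n = 3), with a 95% interval of -0.17 to 0.03 on the log2 scale. TRIM24, a coregulator of nuclear receptors that reads histone marks, had 19.2 and 20.3 CPM. TRIM66, a member of this class best known from testis, had 14.5, 15.0 and 13.7 CPM against 9.87, 12.8 and 10.9 CPM, with no overlap (log2 fold change -0.36, limma adjusted p = 0.022). None of the 4 members with NHL repeats or a filamin domain passed either. TRIM32, mutated in a form of limb-girdle muscular dystrophy, was the most abundant of these at 40.6 and 37.0 CPM (log2 fold change -0.13), and TRIM2, TRIM3 and TRIM45 had -0.11, 0.14 and 0.14.

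Genes for proteins that TRIM ligases act on went both ways. Of 16 tested genes of innate signalling 3 fell and 1 rose (18.8% and 6.25%, against 9.07% and 9.14% of all tested genes). Their median log2 fold change was -0.02. MAVS, on which TRIM31 and TRIM14 act, measured 193, 204 and 195 CPM in siControl and 149, 154 and 148 CPM in siAgrin libraries (log2 fold change -0.39, limma adjusted p = 0.00052). TMEM173, which encodes STING, a target of TRIM56, went from 43.3, 47.7 and 45.0 CPM to 24.4, 29.8 and 23.2 CPM (log2 fold change -0.81, limma adjusted p = 0.00074). For both genes the groups did not overlap. IKBKE, a kinase of interferon induction, fell by 0.26 on the log2 scale, and TAB3, a target of TRIM38, rose by 0.36, while TAB2 had -0.08 and did not pass. Of TRIM proteins that go by other names, MID1, a ligase of the microtubule-bound phosphatase, rose, at 53.7 ± 0.618 CPM in siControl and 64.6 ± 0.196 CPM in siAgrin (SD, n = 3), a log2 fold change of 0.26 (limma adjusted p = 0.0016). Its relative MID2 and PML, the scaffold of nuclear bodies, did not pass, at -0.12 and -0.07. RNF207, a RING and B-box protein of heart muscle, fell from 12.4 to 4.60 CPM (log2 fold change -1.34), and FSD1, a coiled-coil protein with a SPRY domain, had 0.466 and 2.79 CPM (log2 fold change 1.77), and reached the 0.5 CPM minimum in 3 libraries only through the siAgrin group.

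The family counts depended on single libraries, as did the count over all genes. Without siControl 2, siControl 3 or siAgrin 3, TRIM31 fell and no member rose, while the genes called in all dropped from 2377 to 667, 765 and 571. Without siControl 1, TRIM14, TRIM31, TRIM44 and TRIM56 fell and TRIM36 rose, among 1553 genes called. Without siAgrin 1, 8 members fell and 4 rose, among 2418 genes called (18.5% of those tested). Without siAgrin 2, 10 fell and 3 rose, among 3362 genes called (25.8%). In each of these subsets the 10 called members kept the sign of their difference. Of the interferon-inducible members, none passed without siControl 2, siControl 3 or siAgrin 3, and 2 fell without siControl 1.

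**Figure D5:**
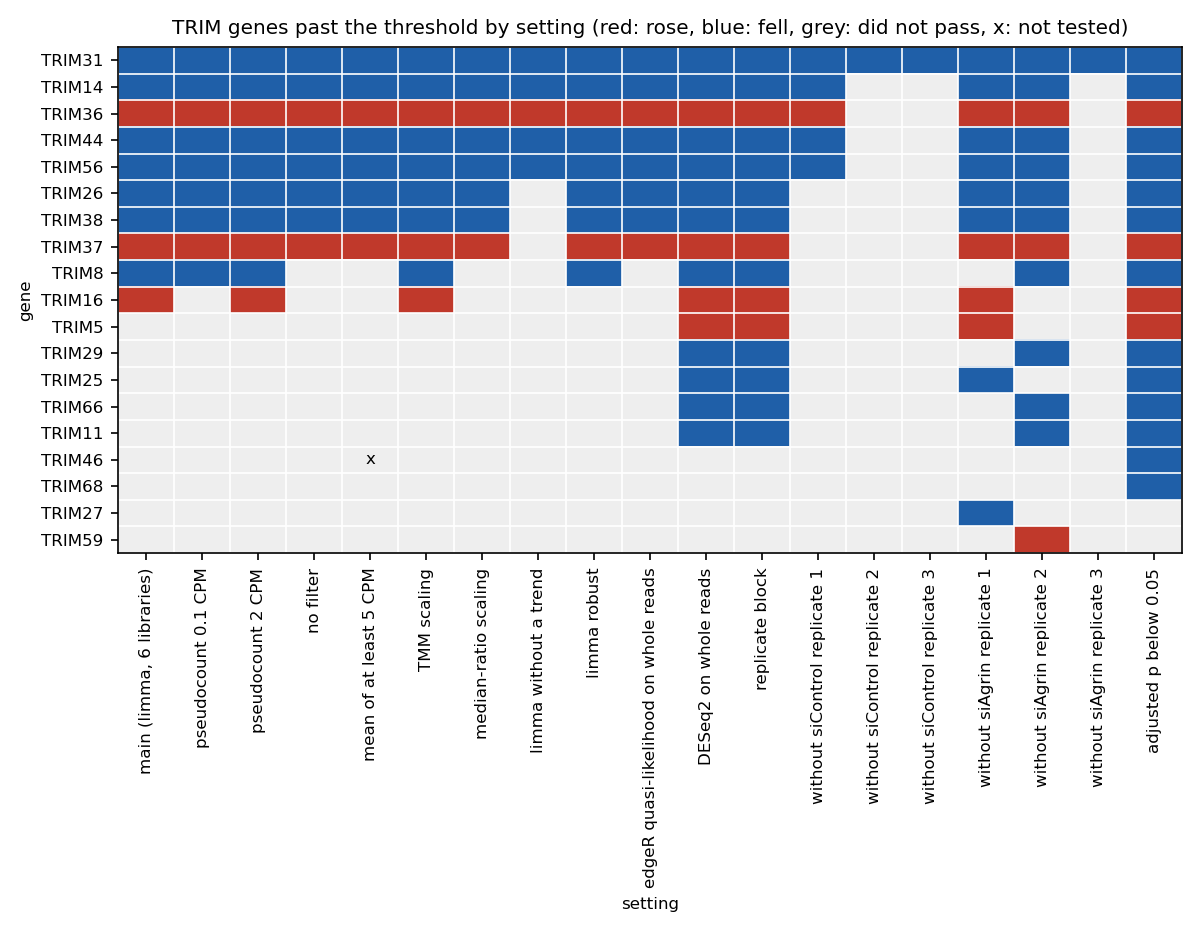
TRIM genes (rows) that passed the threshold in at least 1 of the settings (columns), with red for a rise, blue for a fall, grey for no call and x for a gene left untested. The row of TRIM31 is blue throughout, and the columns without siControl 2, siControl 3 or siAgrin 3 hold no other call.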

How the data were processed

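Polyadenylated RNA of HaCaT cells treated with a control or an Agrin siRNA (3 libraries each) was analysed from the deposited table. STAR 2.6.1d served the authors for alignment to hg38, followed by SAMtools, HTSeq counting on GENCODE 29 and edgeR. What the authors deposited is the CPM of each gene. Divided by what a single read is worth in its library, 100% of the values came within 0.01 of a whole number, which gave back the reads. The sources differ in RNA kit, RNA input and culture medium, and the strand setting and the filter on listed genes are not given in the sources used here.

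Under R 4.3.3, limma 3.58.1 (trend, two-sided, no replicate block) tested log2(CPM + 0.5) in the 13050 of 14168 genes that reached 0.5 CPM in 3 or more libraries, with Benjamini-Hochberg adjustment across all of them and a threshold of 0.01. Since the table holds CPM, the count tests edgeR 4.0.16 and DESeq2 1.42.0 on whole reads were alternatives, and edgeR called 2360 genes. Further alternatives changed the pseudocount (0.1 or 2 CPM), the filter (none, or a minimum mean of 5 CPM), the scaling (TMM or median ratio), the fit (no trend, robust, or a replicate block) and the threshold (0.05, or a 2-fold minimum), and left out each library in turn. Replicates of a group differed by 2.70 to 42.1 times the squared difference that read sampling gives.

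The members and lists were chosen with earlier results of these data known, and the lists are described by counts and medians without a set test. Named were AGRN, each called member, in each structural class the 3 uncalled members with the highest mean CPM, the interferon-inducible members, and in each other list up to 4 called genes with the smallest p. TRIM66, TRIM45, TRIM6, TRIM39 and TAB2, and any other gene outside that rule, were chosen with their values in view. Positions and exon lengths are from GENCODE 44 on GRCh38, the build of the table, and promoter windows from RefSeq. The GENCODE annotation holds 72 protein-coding symbols of the naming rule, of which 30 were not analysed here.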

Additional observations from a re-analysis of the deposited data

How the results depend on the processing

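All 42 members were tested in each fit, except that a minimum mean of 5 CPM left out TRIM45 and TRIM46. TRIM members that rose numbered 3, against 1 in limma without a trend, 0 with a 2-fold minimum and 0 to 4 with a library left out. Members that fell numbered 7, against 4 without a trend, 11 in DESeq2, 13 at a threshold of 0.05, 1 with the 2-fold minimum and 1 to 10 with a library left out. All tested genes called numbered 2377, against 1903 (14.6%) without a trend, 3361 (25.8%) in DESeq2, 4802 at a threshold of 0.05, 202 with the 2-fold minimum and 571 to 3362 with a library left out. Interferon-inducible members that fell numbered 4, against 2 without a trend, 0 with the 2-fold minimum and 0 to 5 with a library left out, a count whose alternatives were added after the data were seen. AGRN fell in every setting.

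Whether replicate numbers pair the libraries was not settled by these values. Same-numbered siControl and siAgrin libraries had correlations of deviations from the group means of 0.53, 0.38 and -0.0018. The siControl libraries 1 and 2 correlated best with the siAgrin library of their own number, and siControl 3 with siAgrin 2 (0.35). With the replicate block 11 members fell, 4 rose and 3966 genes were called in all.

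TRIM14, TRIM36, TRIM44 and TRIM56 passed in 15 of 18 alternatives, TRIM26, TRIM38 and TRIM37 in 13, TRIM8 in 8 and TRIM16 in 6. No scaling moved the median of all genes by more than 0.1 on the log2 scale, and none changed the sign of a called member. The cause of the changes in calls was not tested, and each subset with a library left out also held fewer libraries.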

Other observations

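The E2 enzymes that hand ubiquitin to RING ligases and the partners of TRIM28 on chromatin were measured in the same libraries. Of 17 E2 genes 2 fell and none rose (11.8% and 0%, against 9.07% and 9.14% of all tested genes). UBE2V1, a partner of UBE2N in building lysine-linked chains of signalling, measured 153, 160 and 164 CPM in siControl and 135, 135 and 131 CPM in siAgrin libraries (limma log2 fold change -0.25, adjusted p = 0.0035), and UBE2N itself had 109.2 and 108.7 CPM on average. UBE2J1, an E2 enzyme of the endoplasmic reticulum, went from 55.4 ± 1.98 to 47.4 ± 1.37 CPM (SD, n = 3, limma log2 fold change -0.22, adjusted p = 0.0082).

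Of 13 tested partners of TRIM28 3 fell and 1 rose (23.1% and 7.69%, against 9.07% and 9.14% of all tested genes). Their median log2 fold change was -0.09. CHD3, a helicase of the NuRD complex that TRIM28 binds, measured 219, 232 and 219.9 CPM in siControl and 182, 179.7 and 176 CPM in siAgrin libraries (limma log2 fold change -0.32, adjusted p = 0.0012). The heterochromatin protein genes CBX5 and CBX1 went opposite ways, at log2 fold changes of -0.30 and 0.18. MPHOSPH8, a subunit of the HUSH complex, had 70.1 and 54.4 CPM, and the histone methyltransferase gene SETDB1 had 60.0 and 60.5 CPM and did not pass. SMAD2, SMAD3 and SMAD4 did not pass, at -0.03, -0.27 and -0.04.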
